A study of Mus musculus with 12 samples.

Results

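Krt6a, Krt6b, Krt16, Krt17 and Krt75 are the mouse keratin genes that skin keratinocytes switch on at a wound edge or hold ready in the hair follicle. They were chosen by name, as 5 rows of the gene count files, and they are 5 of 24062 genes and 5 of 52 keratin symbols counted. RNA came from wounds of the dorsal skin of C57BL/6 mice made diabetic with streptozotocin, a toxin of insulin-producing beta cells, and each mouse gave 1 library. There were 4 treatment groups of 3 mice. The mice labelled blank served as the reference. The mice labelled DSCG, the usual abbreviation of disodium cromoglycate, received an established mast cell stabilizer. The mice labelled pre-MCS-01 and post-MCS-01 received the mast cell stabilizer that the series title calls MCS-01, and the labels do not say what pre and post refer to. All 12 mice shared the strain, the diabetes model and the wound. Age, sex, dose, wound age and batch are not given in the sources used here. A wound sample of this kind holds epidermis, hair follicles, dermis, muscle and blood cells in unknown shares.

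Keratins are filament proteins that work as pairs of a type I and a type II chain. Basal keratinocytes of resting skin make Krt5 with Krt14, and keratinocytes that leave the basal layer make Krt1 with Krt10. Within hours of an injury the keratinocytes at the edge add the type II chains Krt6a and Krt6b and the type I chains Krt16 and Krt17, which are textbook markers of an activated, migrating or hyperproliferative epidermis. Krt17 is also made constantly in hair follicles and other skin appendages. Krt75, a type II chain once called K6hf, belongs chiefly to the companion layer of the hair follicle, which lies against the inner root sheath.

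The genes lie in the keratin clusters, all on the minus strand of GRCm38. Krt6a is at chr15:101689910-101694307, Krt6b at chr15:101676023-101680287 and Krt75 at chr15:101563345-101573904, while Krt16 is at chr11:100246091-100248902 and Krt17 at chr11:100256217-100261029. The summed exons are 2418 bases long in Krt6a, 2235 in Krt6b, 1565 in Krt16, 1551 in Krt17 and 3266 in Krt75. Their sequences decide how well reads tell them apart, so the stretches that separate the closest pairs are shown here, taken from the GENCODE M21 transcripts. The coding sequences of Krt6a and Krt6b were identical at 1622 of 1659 aligned bases (97.8%), with a longest identical run of 280 bases. The window in which they differ most, coding positions 817 to 876 of both, holds 10 differences in 60 bases, printed in capitals.
Krt6a: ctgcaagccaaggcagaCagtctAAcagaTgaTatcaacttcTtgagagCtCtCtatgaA
Krt6b: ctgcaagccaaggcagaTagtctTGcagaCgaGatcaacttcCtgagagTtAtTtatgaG

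Krt16 is closest to Krt14, its basal relative, with 86.5% identical coding bases and a longest identical run of 134 bases. Their window of largest difference, coding positions 949 to 1008 of Krt16 and 973 to 1032 of Krt14, holds 24 differences in 60 bases, again in capitals.
Krt16: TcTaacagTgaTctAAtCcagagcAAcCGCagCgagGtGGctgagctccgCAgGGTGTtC
Krt14: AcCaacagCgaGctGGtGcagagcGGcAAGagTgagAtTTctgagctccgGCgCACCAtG

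Of all 100-base stretches of the transcript, 34.0% of those of Krt6a were also found in another gene, namely Krt6b, Krt5 or the predicted genes Gm5414 and Gm5478. The share was 30.6% in Krt6b and 24.3% in Krt16, where the other genes were Krt14 and the predicted gene Gm11597. No 100-base stretch of Krt17 or Krt75 was found elsewhere. With 50-base stretches the shares were 49.5% in Krt6a, 50.1% in Krt6b, 37.6% in Krt16, 3.99% in Krt17 and 0% in Krt75. The read length is not given in the sources used here. Reads that aligned in more than 1 place made up 17.2% to 23.4% of the reads of a library and stand outside the gene counts. The levels of Krt6a, Krt6b and Krt16 are therefore uncertain as absolute levels, more than those of Krt17 and Krt75. Annotated antisense or miRNA models overlap Krt6a (Gm49428 and Gm44342), Krt6b (Gm44383) and Krt75 (Gm44460), and no strand setting of the counting is stated.

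The libraries held 3.84e+06 gene counts (blank replicate 3) to 5.05e+07, with a median of 4.19e+07, and the 5 keratins made up 0.789% to 2.54% of them. Levels are given as CPM, counts scaled to a common depth, after TMM scaling, a correction for library composition. The label of skin was borne out by its markers, as Krt5 lay between 4978 and 8526 CPM and Krt14 between 4571 and 15684 CPM in all 12 libraries. In 3 libraries genes with long transcripts were low, namely blank replicate 3 and replicates 2 of DSCG and pre-MCS-01. The rank correlation of a gene's deviation with its exon length there was -0.320, -0.330 and -0.385, against -0.0561 to 0.336 in the other libraries. All 5 keratins passed the filter on low counts. In whole wounds, fewer keratinocytes of a kind and less keratin RNA per keratinocyte cannot be told apart.

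Per kilobase of exon, which allows genes to be compared, Krt17 had the highest mean level in blank wounds with 4180 ± 868 CPM per kb (SD, n = 3), followed by Krt16 with 1525 ± 891, Krt6a with 660 ± 48.3, Krt6b with 462 ± 228 and Krt75 with 99.8 ± 55.1. DSCG wounds had the same order of means. In pre-MCS-01 wounds Krt6b, at 1223 ± 157 CPM per kb, came before Krt6a, at 1005 ± 187, and in post-MCS-01 wounds Krt16, at 4008 ± 1625, also came before Krt17, at 3728 ± 866. The neighbours Krt16 and Krt17 in DSCG, pre-MCS-01 and post-MCS-01 wounds, and Krt6a and Krt6b in every group, had ranges over the 3 libraries that overlapped. Counted per unique 100-base position in place of exon length, a choice made after the shared stretches were known, Krt16 came before Krt17 in DSCG and pre-MCS-01 wounds as well. Krt75 had the lowest mean in each group. DSCG replicate 3 was an exception among single libraries, since Krt75 there, at 279 CPM per kb, was above Krt6b, at 54.7, and Krt16, at 204.

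**Figure D1:**
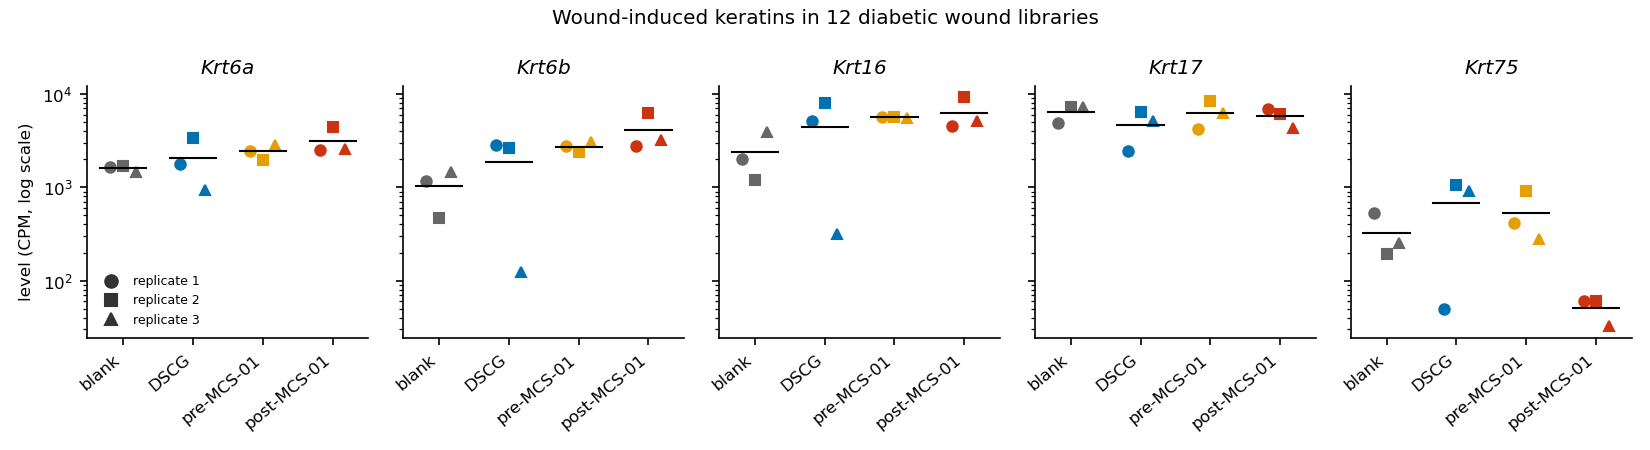
Level of each wound-induced keratin in every library, in CPM on a log axis, by treatment group. Symbols are replicates 1 to 3 and bars are group means. Krt75 lies between 32.3 and 60.5 CPM in the post-MCS-01 wounds and in DSCG replicate 1 at 49.2 CPM, and at 192 CPM or more in the other libraries, while Krt6b and Krt16 are lowest in DSCG replicate 3.

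No member of the group passed an adjusted p under 0.05 in any of the 6 comparisons of 2 groups or in the joint test of all 4 groups, by edgeR's quasi-likelihood test with Benjamini-Hochberg adjustment over the 16267 genes tested. The share of all genes that passed was 0% for pre-MCS-01, post-MCS-01 and DSCG against blank, 0% for pre-MCS-01 against DSCG and 0% in the joint test. It was 0.824% (134 genes) for pre-MCS-01 against post-MCS-01 and 1.06% (172 genes) for post-MCS-01 against DSCG. At an unadjusted p under 0.05, 3 members stood out for post-MCS-01 against blank (Krt6a and Krt6b higher, Krt75 lower), against 9.35% of all genes. Krt75 was the only member at that level for pre-MCS-01 against post-MCS-01, for post-MCS-01 against DSCG and in the joint test, where 10.2%, 11.3% and 8.42% of all genes reached it. No member reached it for pre-MCS-01 against blank (7.24% of all genes), DSCG against blank (1.03%) or pre-MCS-01 against DSCG (2.36%). DESeq2 called Krt75 in these same 4 tests and no other member in any test, while limma-voom called none.

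Group ranges gave a second view of the same values. The wounds of pre-MCS-01 and blank did not overlap for 3 of 5 members (Krt6a, Krt6b and Krt16), where 14.4% of all genes did not. For post-MCS-01 and blank it was 4 of 5 members (the same 3 and Krt75), against 18.4% of all genes, and for pre-MCS-01 and post-MCS-01 it was Krt75 alone, against 17.7%. All 5 members overlapped between DSCG and blank (3.68% of all genes did not), between post-MCS-01 and DSCG (15.4%) and between pre-MCS-01 and DSCG (5.12%). With 3 libraries against 3, an exact permutation test of a single gene cannot give a two-sided p below 0.1. The comparisons share groups, so their results are not independent of each other. Nor are Krt6a, Krt6b and Krt16 independent of each other, since they varied together over the libraries.

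Krt6a, a type II chain of the wound edge, stood at 1633, 1690 and 1465 CPM in blank replicates 1, 2 and 3. It was at 2455, 1967 and 2870 CPM in the pre-MCS-01 wounds and at 2491, 4458 and 2562 CPM in the post-MCS-01 wounds. The DSCG wounds had 1795, 3411 and 926 CPM. Every MCS-01 wound was thus above every blank wound, and the DSCG wounds lay on both sides of them. The mean was 1596 ± 117 CPM in blank (SD, n = 3), 2044 ± 1261 in DSCG, 2431 ± 452 in pre-MCS-01 and 3170 ± 1116 in post-MCS-01. The fitted difference of post-MCS-01 from blank was 1.99-fold (log2 0.99 ± 0.42 SE, unadjusted p = 0.0365, adjusted p = 0.475 by edgeR), with a 95% interval of 1.05-fold to 3.75-fold. That of pre-MCS-01 from blank was 1.52-fold, with an interval of 0.810 to 2.86 (adjusted p = 0.738 by edgeR).

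Krt6b, the close copy of Krt6a, spread more widely. Blank wounds had 1179, 466 and 1455 CPM, pre-MCS-01 wounds 2778, 2363 and 3061 CPM and post-MCS-01 wounds 2787, 6273 and 3182 CPM. In the DSCG wounds it was at 2833, 2621 and 122 CPM. As for Krt6a, the 6 MCS-01 wounds were above the 3 blank wounds, but DSCG replicates 1 and 2 were at the level of the pre-MCS-01 wounds and DSCG replicate 3 was the lowest of all 12. Post-MCS-01 was 3.95-fold above blank (log2 1.98 ± 0.83, unadjusted p = 0.0350, adjusted p = 0.470 by edgeR), with an interval of 1.12-fold to 13.9-fold, and pre-MCS-01 was 2.65-fold above blank (log2 1.40 ± 0.82, adjusted p = 0.728 by edgeR). The fitted values of DSCG depended on single libraries. DSCG against blank was 0.85 on the log2 scale with all libraries and 1.40 without DSCG replicate 3 (adjusted p = 0.999 and 0.925 by edgeR). It was 0.41 without DSCG replicate 1.

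Krt16, the type I chain that pairs with Krt6 proteins, had 2033, 1202 and 3923 CPM in blank wounds. Pre-MCS-01 wounds were close together at 5721, 5693 and 5547 CPM, and post-MCS-01 wounds had 4525, 9190 and 5102 CPM. The DSCG wounds had 5145, 7943 and 319 CPM. Again the MCS-01 wounds lay above the blank wounds, 2 DSCG wounds lay among or above them and DSCG replicate 3 was far below, so that the DSCG group spanned a 24.9-fold range. The fitted difference from blank was 2.63-fold for post-MCS-01 (log2 1.39 ± 0.81, adjusted p = 0.662 by edgeR) and 2.37-fold for pre-MCS-01 (log2 1.24 ± 0.81, adjusted p = 0.731 by edgeR). Both intervals included equality, at 0.771 to 8.97 and 0.698 to 8.05. Post-MCS-01 against DSCG was 0.49 on the log2 scale, -0.06 without DSCG replicate 3 and 1.20 without DSCG replicate 2.

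Krt17, the type I chain shared by wound edge and hair follicle, did not follow the other wound-edge keratins. It had 4929, 7220 and 7301 CPM in blank wounds, 2440, 6448 and 5098 CPM in DSCG wounds, 4205, 8486 and 6290 CPM in pre-MCS-01 wounds and 6883, 6180 and 4285 CPM in post-MCS-01 wounds. All 4 groups overlapped, and DSCG replicate 1 was the lowest library. Fitted differences from blank were -0.04 ± 0.40 (log2) for pre-MCS-01, -0.17 ± 0.40 for post-MCS-01 and -0.48 ± 0.40 for DSCG, with adjusted p of 0.989, 0.979 and 0.999 by edgeR. The 95% interval of post-MCS-01 against blank ran from 0.489-fold to 1.63-fold. It thus leaves room for a level 1.63 times as high and does not show that the groups were alike.

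Krt75, the companion layer keratin, had another pattern. The post-MCS-01 wounds held 60.5, 59.8 and 32.3 CPM, below all blank wounds, at 531, 192 and 255 CPM, and all pre-MCS-01 wounds, at 412, 917 and 279 CPM. The DSCG wounds had 49.2, 1060 and 911 CPM, so that replicate 1 lay among the post-MCS-01 wounds and the other two were near the top. Post-MCS-01 was 6.41-fold below blank (log2 -2.68 ± 0.87, unadjusted p = 0.00981, adjusted p = 0.310 by edgeR). Pre-MCS-01 was 10.5-fold above post-MCS-01 (log2 3.40 ± 0.89, unadjusted p = 0.00274, adjusted p = 0.157 by edgeR), and post-MCS-01 was 13.2-fold below DSCG (log2 -3.73 ± 0.91, unadjusted p = 0.00160, adjusted p = 0.0958 by edgeR). Without DSCG replicate 1, all 3 of these differences passed, with adjusted p of 0.0286, 0.00681 and 0.00219 by edgeR, as did the joint test with 0.0166 (0.358 with all libraries). Each library was left out in turn, and no other omission gave a call of Krt75 by edgeR. DSCG replicate 1 was the only library outside post-MCS-01 at that low Krt75 level, so leaving it out removed the contrary value. Pre-MCS-01 and DSCG stood at 0.72 ± 0.82 and 1.05 ± 0.82 (log2) from blank, with adjusted p of 0.834 and 0.999 by edgeR. Over the alternatives these values ran from -0.07 to 1.21 and from -0.37 to 1.59, and the former was 0.09 without pre-MCS-01 replicate 2.

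**Figure D2:**
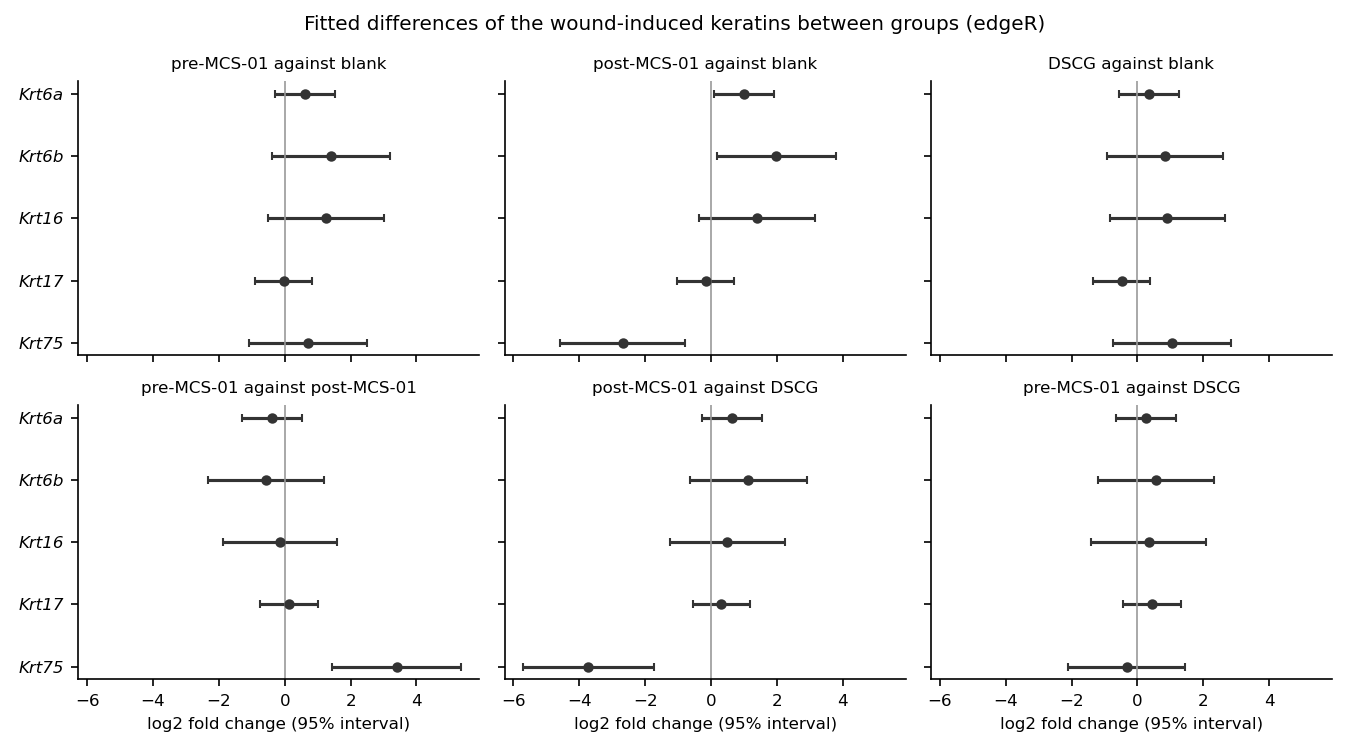
Fitted log2 fold changes of the 5 keratins in the 6 comparisons of 2 groups, with bars for 95% intervals not adjusted for the number of genes and a grey line at no difference. The intervals of Krt75 exclude 0 in the 3 comparisons with post-MCS-01, and those of Krt6a and Krt6b exclude it only for post-MCS-01 against blank.

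Between pre-MCS-01 and post-MCS-01 the fitted log2 differences of Krt6a, Krt6b, Krt16 and Krt17 were -0.38, -0.58, -0.15 and 0.13 (adjusted p 0.758 to 0.956 by edgeR). For post-MCS-01 against DSCG they were 0.63, 1.13, 0.49 and 0.31 (adjusted p 0.612 to 0.842 by edgeR), and those of Krt6a and Krt6b dropped to 0.29 and 0.57 without DSCG replicate 3. That of Krt6a rose to 1.22 without DSCG replicate 2, and that of Krt6b to 1.58 without DSCG replicate 1. For pre-MCS-01 against DSCG the 5 values ran from -0.33 (Krt75) to 0.56 (Krt6b). For DSCG against blank Krt16 stood at 0.91, at 1.45 without DSCG replicate 3 and at 0.20 without DSCG replicate 2. Krt6a stood at 0.36, at 0.70 without DSCG replicate 3 and at -0.23 without DSCG replicate 2. The median log2 difference of the 5 members was 0.72 for pre-MCS-01 against blank (0.04 over all genes), 0.99 for post-MCS-01 against blank (-0.0064), 0.85 for DSCG against blank (-0.0016), -0.15 for pre-MCS-01 against post-MCS-01 (0.03), 0.49 for post-MCS-01 against DSCG (-0.0063) and 0.34 for pre-MCS-01 against DSCG (0.03).

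Ratios within a library do not depend on how libraries are scaled. Each member was divided by the basal keratin of its type, Krt5 or Krt14, per kilobase of exon. Krt5 itself had means of 6049 ± 621 CPM in blank, 6864 ± 1564 in DSCG, 6300 ± 1362 in pre-MCS-01 and 5882 ± 1216 in post-MCS-01, and Krt14 8253 ± 2530, 10599 ± 5221, 12296 ± 3130 and 10479 ± 2360, with adjusted p of 0.761 or more in all comparisons by edgeR. Krt6a to Krt5 was 0.200 to 0.273 in blank wounds, 0.287 to 0.524 in pre-MCS-01 wounds and 0.442 to 0.556 in post-MCS-01 wounds, so both MCS-01 groups lay above blank. Krt6b to Krt5 was 0.0758 to 0.214 in blank, 0.355 to 0.604 in pre-MCS-01 and 0.538 to 0.847 in post-MCS-01 wounds, again without overlap with blank. Krt16 to Krt14 showed the same arrangement, narrowly for pre-MCS-01, with 0.215 to 0.397 in blank, 0.410 to 0.655 in pre-MCS-01 and 0.585 to 0.785 in post-MCS-01 wounds. The ratios reuse the member levels given above and are not independent of them. No share over all genes was worked out for ratios. In DSCG wounds these 3 ratios spanned 0.155 to 0.364, 0.0222 to 0.419 and 0.0785 to 0.659. The first and second of these ranges overlapped blank and pre-MCS-01 and lay below post-MCS-01, and the third overlapped all other groups. Krt17 to Krt14 ranged from 0.202 to 1.30 with overlap of all groups. Krt75 to Krt5 was 0.00412 to 0.00799 in post-MCS-01 wounds, 0.0214 to 0.0657 in blank wounds and 0.0360 to 0.0991 in pre-MCS-01 wounds. In DSCG wounds it was 0.00498 to 0.113, and DSCG replicate 1, at 0.00498, lay inside the post-MCS-01 range.

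The balance of the near-copies also varied. Krt6a to Krt6b was 0.770 to 0.867 in pre-MCS-01 wounds and 0.657 to 0.826 in post-MCS-01 wounds, so Krt6b was the more abundant per kilobase in all 6. In blank wounds the ratio was 1.28, 3.35 and 0.931, and in DSCG wounds 0.585, 1.20 and 7.0. The highest ratio, in DSCG replicate 3, came with the lowest Krt6b level of the study, 122 CPM, beside 926 CPM of Krt6a. These ratios rest on reads that differ between the genes, such as those over the printed window.

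**Figure D3:**
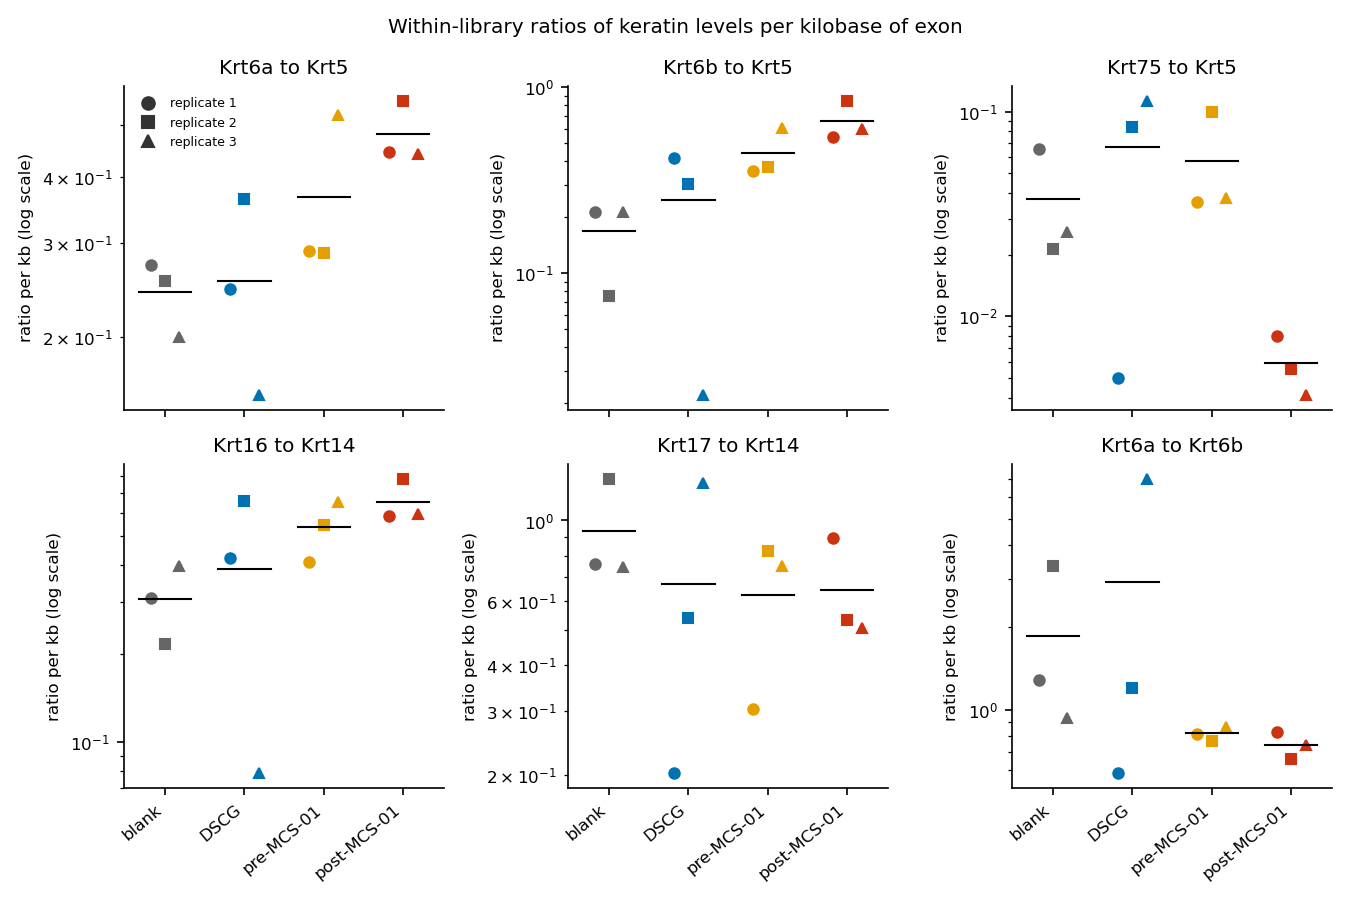
Ratios of keratin levels per kilobase of exon within each library, on log axes that differ between panels, by treatment group. Symbols are replicates 1 to 3 and bars are group means. The MCS-01 wounds lie above the blank wounds for Krt6a to Krt5, Krt6b to Krt5 and Krt16 to Krt14, and overlap them for Krt17 to Krt14.

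Across the 12 libraries Krt6a, Krt6b and Krt16 varied together and Krt17 did not vary with them. On log2 CPM, Krt6b and Krt16 had a Pearson r of 0.976 (p = 1e-05, adjusted 6e-05, the smallest p that 100000 permutations can give) and a Spearman rho of 0.678 (permutation p = 0.0189, adjusted 0.0377). Krt6a and Krt6b had r = 0.852 (permutation p = 0.00018, adjusted 0.00036) and rho = 0.811 (permutation p = 0.00232, adjusted 0.00696), and Krt6a and Krt16 r = 0.839 (permutation p = 0.00017, adjusted 0.00036) and rho = 0.818 (permutation p = 0.00194, adjusted 0.00696). Leaving out the 2 libraries farthest from the median of the gene named first in each pair gave r of 0.847, 0.635 and 0.660. Leaving out DSCG replicate 3 alone gave 0.935, 0.746 and 0.723. Krt17 had r of 0.115 with Krt6a, -0.0787 with Krt6b and 0.00395 with Krt16 (permutation p of 0.717, 0.794 and 0.990, adjusted 0.952, 0.952 and 0.990), and rho of -0.0559, -0.336 and -0.0839 (permutation p of 0.868, 0.287 and 0.802, adjusted 0.868, 0.431 and 0.868). Without the 2 libraries farthest from the median of Krt6a, Krt6b or Krt16 these r were 0.0323, -0.0788 and 0.120. DSCG replicate 1, the lowest library for Krt17, was not among those left out. All 6 relations of 1 family were computed, with two-sided p adjusted over them. For deviations from the group means r was 0.980 for Krt6b and Krt16, 0.770 for Krt6a and Krt6b and 0.793 for Krt6a and Krt16. The basal keratin Krt14 also varied with these 3 members, described with no test. Its r was 0.905 with Krt16, 0.846 with Krt6b and 0.659 with Krt6a, and its rho 0.825, 0.517 and 0.462. Krt6a and Krt6b share sequence, as do Krt16 and Krt14, as shown above, and all pairs share the library. For Krt75 no r with the other members is given, since 4 libraries at 32.3 to 60.5 CPM stand 3.17-fold apart from the next.

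**Figure D4:**
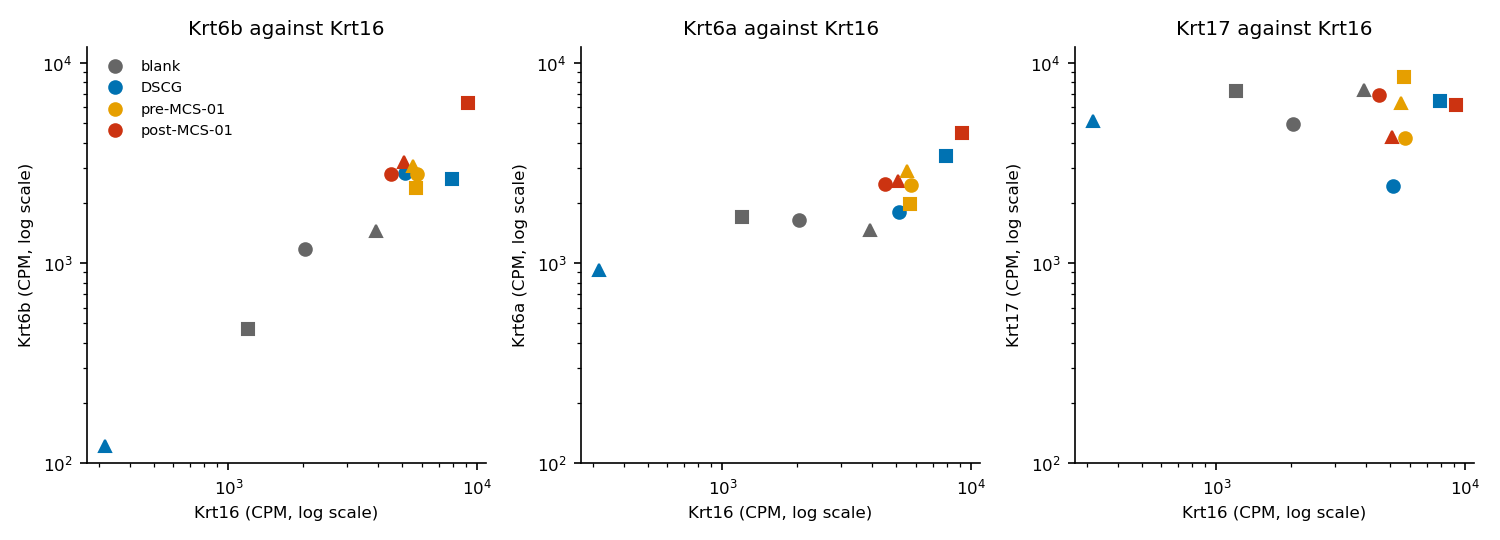
Krt6b, Krt6a and Krt17 plotted against Krt16, each in CPM on log axes, 1 point per library. Colours are groups, and circles, squares and triangles are replicates 1, 2 and 3. Krt6b and Krt6a climb with Krt16 from DSCG replicate 3 at the lower left, whereas Krt17 lies between 2440 and 8486 CPM at every level of Krt16.

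The genes whose log2 levels were most like each member's over the 12 libraries were taken from 13512 candidates with a mean of at least 1 CPM, as a description with no test. For Krt6a these were Tnfsf9 (r = 0.910), a ligand of the tumor necrosis factor family, Rela (0.907), a subunit of NF-kB, Ugcg (0.900), the glucosylceramide synthase, Wdr92 (0.898) and Ier3 (0.894), an immediate early gene. For Krt6b they were Klk9 (0.977), a kallikrein peptidase, the cornified envelope genes Sprr2g (0.973), Lce3b (0.971) and Sprr1b (0.966), and BC117090 (0.971). Krt16 had Defb14 (0.982), an antimicrobial peptide, Sprr1b (0.965), Klk9 (0.963), BC117090 (0.956) and Stfa2 (0.955), a protease inhibitor of the stefin family, so that 3 of the 5 stood in the set of Krt6b too. Without DSCG replicate 3, which is lowest for Krt6a, Krt6b and Krt16, the r of these 15 pairs were 0.819 to 0.960. Krt17 had lower values, with Homer2 (0.831), a scaffold protein, Mapk11 (0.822), a p38 kinase, Tpd52l1 (0.815), Ccl20 (0.810), a chemokine, and Calm2 (0.798), a calmodulin gene. For Krt75 the same ranking gave genes whose r is printed within the 8 libraries above its gap, a choice made after the levels were seen. They were Ggt1 (0.983), a gamma-glutamyltransferase, Pinlyp (0.903), Bambi (0.963), a decoy receptor of the TGF-beta family, Serpina1e (0.951) and Msx2 (0.971), a homeobox factor of the hair matrix. Within the 8 libraries highest in the member itself, the r of the other pairs were lower or more spread, at 0.693 to 0.872 for Krt6a, 0.550 to 0.751 for Krt6b, 0.412 to 0.889 for Krt16 and 0.372 to 0.837 for Krt17.

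Hair follicle genes set a context for Krt75, and they were chosen with the result on hair genes in these wounds already known. Of 10 inner root sheath genes, 9 passed as higher for pre-MCS-01 against post-MCS-01 and 9 as lower for post-MCS-01 against DSCG at an adjusted p under 0.05 by edgeR, with median log2 differences of 8.20 and -8.75. Tchh, the trichohyalin gene, had 5612 ± 1515 CPM in pre-MCS-01 wounds (SD, n = 3) and 31.5 ± 9.53 in post-MCS-01 wounds (log2 7.48 ± 1.10, adjusted p = 0.0313 by edgeR). Padi3, an enzyme that modifies trichohyalin, had 330 ± 183 and 1.33 ± 0.922 CPM. The inner root sheath keratins Krt72 and Krt26 had 332 ± 240 and 135 ± 88.9 CPM in pre-MCS-01 wounds, and at most 0.731 and 0.479 CPM in post-MCS-01 wounds, with no count in replicate 2. Of 12 hair shaft genes, 9 passed as higher in the former comparison and 11 as lower in the latter. They include the hair keratins Krt31, Krt33a, Krt33b and Krt86, which had 280, 325, 256 and 318 CPM in pre-MCS-01 wounds and 0.230, 0.198, 0.171 and 0.317 CPM in post-MCS-01 wounds on average. Neither list had a call against blank by edgeR, although 9 and 11 genes stood lower for post-MCS-01 against blank at an unadjusted p under 0.05 and by DESeq2. Over all genes 9.35% reached that unadjusted level in either direction.

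The hair gene calls depended on single libraries. For pre-MCS-01 against post-MCS-01, none of the 10 inner root sheath genes passed without pre-MCS-01 replicate 2, blank replicate 3 or any of the 3 post-MCS-01 wounds, and hair shaft calls also ended without DSCG replicate 3. For post-MCS-01 against DSCG both lists had no call without DSCG replicate 2 or 3, blank replicate 3 or any post-MCS-01 wound, and limma-voom left at most 1 gene of either list in both comparisons. DESeq2 called 9 inner root sheath and 11 hair shaft genes in both comparisons. With library quality weights limma-voom called 10 and 12 for pre-MCS-01 against post-MCS-01, and 0 of either list for post-MCS-01 against DSCG. The levels themselves were far apart. Summed over the list, inner root sheath genes had 165 to 191 CPM in post-MCS-01 wounds, 7000 to 20574 in blank, 12707 to 30985 in pre-MCS-01 and 2152 to 41690 in DSCG wounds. The sum includes Gata3, which was at 80.3 CPM or more in every library, so the low sums are not a level of the sheath keratins. DSCG replicate 1, with 2152 CPM, had the lowest sum outside the post-MCS-01 group and the Krt75 level nearest to it. DSCG replicate 3, the lowest library for Krt6b and Krt16, had the highest sum. The part of the number of hair follicles in the Krt75 values was not tested.

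**Figure D5:**
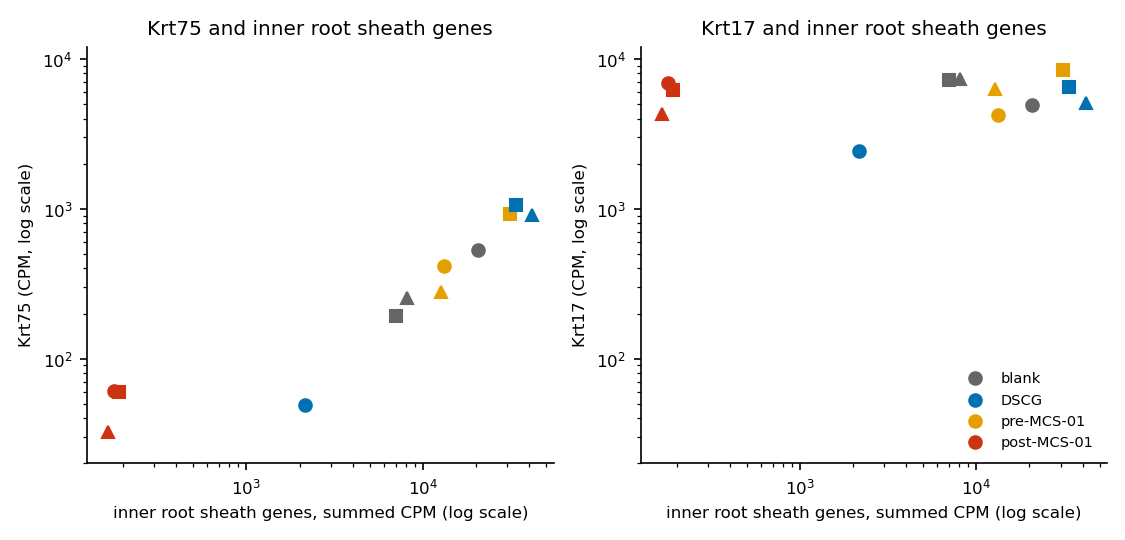
Krt75 (left) and Krt17 (right) in CPM against the summed CPM of 10 inner root sheath genes, on log axes, 1 point per library. The sum includes Gata3, at 80.3 CPM or more in every library. Colours are groups, and circles, squares and triangles are replicates 1, 2 and 3. The post-MCS-01 wounds lie at sums of 165 to 191 CPM with Krt75 at 32.3 to 60.5 CPM, a range that also holds DSCG replicate 1, and with Krt17 at 4285 to 6883 CPM, inside the range of the other wounds.

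Genes other than keratins that mark an activated epidermis were read beside Krt6a, Krt6b and Krt16. None of 26 passed an adjusted p under 0.05 in any comparison by edgeR. At an unadjusted p under 0.05, 10 were higher in pre-MCS-01 than in blank wounds, and 15 were higher and 1 was lower in post-MCS-01 than in blank wounds, where 7.24% and 9.35% of all genes reached that level in either direction. DESeq2 called 1 higher in the former comparison, and 5 higher and 1 lower in the latter, and limma-voom called none. Their median log2 difference was 0.97 for pre-MCS-01 and 1.08 for post-MCS-01 against blank, and 0.04 for DSCG against blank. Summed over the list, they had 4458 to 5583 CPM in blank, 3865 to 8161 in DSCG, 10694 to 11920 in pre-MCS-01 and 9551 to 20750 in post-MCS-01 wounds, so both MCS-01 groups were above all other wounds. S100a9, a calcium-binding alarmin of activated keratinocytes and of neutrophils, had 508, 303 and 532 CPM in blank, 3892, 2810 and 2666 in pre-MCS-01 and 3642, 6746 and 2856 in post-MCS-01 wounds, without overlap, and 2352, 514 and 10.5 in DSCG wounds. Its log2 difference from blank was 2.80 ± 1.14 for pre-MCS-01 and 3.30 ± 1.17 for post-MCS-01 (adjusted p = 0.669 and 0.366 by edgeR). Sprr1a, a cornified envelope gene, went the other way, with 1781 ± 257 CPM in blank and 839 ± 258 in post-MCS-01 wounds (log2 -1.09 ± 0.50, adjusted p = 0.538 by edgeR).

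Signals known to induce these keratins include ligands of the epidermal growth factor receptor and inflammatory cytokines. None of 7 such ligands passed in any comparison by edgeR. Against blank, 3 were higher in post-MCS-01 wounds at an unadjusted p under 0.05, where 9.35% of all genes reached that level in either direction. DESeq2 called 1 of the ligands there and limma-voom none. Hbegf had 45.6 ± 5.71 CPM in blank and 126 ± 57.3 in post-MCS-01 wounds (log2 1.46 ± 0.42, adjusted p = 0.245 by edgeR), and Tgfa 53.2 ± 13.9 and 114 ± 67.7 (log2 1.09 ± 0.43, adjusted p = 0.441 by edgeR). Of 15 inflammatory inducers 11 passed the filter on low counts. At an unadjusted p under 0.05, 8 of these 11 were higher in post-MCS-01 and 5 in pre-MCS-01 than in blank wounds. For all genes the shares were 9.35% and 7.24% in either direction. The median log2 differences of the inducers were 2.58 and 2.10. DESeq2 called 3 and 1 of the inducers there, and edgeR and limma-voom none. By edgeR 1 of the 11, Il20, a cytokine of the interleukin-10 family that acts on keratinocytes, was called for post-MCS-01 against DSCG. Il20 had 3.98, 7.05 and 1.06 CPM in post-MCS-01 and 0.0253, 0.176 and 0.106 CPM in DSCG wounds (adjusted p = 0.0323 by edgeR, and 0.0186 with no filter). Blank wounds were at 0.0588, 0.208 and 0 CPM and pre-MCS-01 wounds at 0.845, 1.96 and 2.23 CPM, so that all 6 MCS-01 wounds exceeded the other 6. Il20 passed the filter through the MCS-01 wounds alone, since no blank or DSCG library held more than 10 counts of it, and the call is given as a description. It was lost without DSCG replicate 2 or 3, blank replicate 3 or any post-MCS-01 wound, and by limma-voom (adjusted p = 0.144), and the adjusted p ranged from 1.76e-08 to 0.196 over the alternatives.

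Of 13 receptors upstream of these genes none passed in any comparison by edgeR. At an unadjusted p under 0.05, 5 were higher in post-MCS-01 than in blank wounds, where 9.35% of all genes reached that level in either direction. DESeq2 and limma-voom called none of the receptors there. Tnfrsf1a, a receptor of tumor necrosis factor, had 266 ± 8.55 CPM in blank and 366 ± 22.7 in post-MCS-01 wounds (log2 0.46 ± 0.16, adjusted p = 0.372 by edgeR), and Erbb2 had 201 ± 32.1 and 184 ± 57.5. Of 19 transcription factors linked to wound keratins, 1, Cebpd, was called by edgeR. Against blank, 4 were higher and 2 lower in post-MCS-01 wounds at an unadjusted p under 0.05, beside the same 9.35% of all genes. DESeq2 called 1 higher and 1 lower there, and limma-voom none. Cebpd, a C/EBP factor of the acute phase response, rose from 47.9, 59.5 and 32.7 CPM in DSCG to 154, 76.9 and 141 CPM in post-MCS-01 wounds (log2 1.41 ± 0.28, adjusted p = 0.0396 by edgeR). That call remained without pre-MCS-01 replicate 2 or DSCG replicate 1 and ended without any other single library, with adjusted p of 0.000412 to 0.234 over the alternatives. The lists of ligands, inducers, receptors and factors hold other genes that act in many cell types of a wound.

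The other keratin lists (3 basal, 7 of differentiating layers and 4 of simple epithelia) gave no call by edgeR in any comparison. The median log2 difference of the 7 differentiation keratins from blank was -0.39 for pre-MCS-01 and -0.47 for post-MCS-01. Krt10 had 7801 ± 3373 CPM in blank and 6462 ± 5504 in post-MCS-01 wounds, and Krt1 5718 ± 2301 and 6784 ± 4592. Of the 7, 1 was higher in pre-MCS-01 and 1 lower in post-MCS-01 than in blank wounds at an unadjusted p under 0.05, and DESeq2 called none. Over all genes 7.24% and 9.35% reached that level in either direction. Among 4 keratins of simple epithelia, Krt18 had 3.59 ± 1.21 CPM in blank and 0.898 ± 0.185 in post-MCS-01 wounds (log2 -1.98 ± 0.94, adjusted p = 0.550 by edgeR), and Krt8 2.69 ± 1.20 and 1.63 ± 0.659. DESeq2 called 1 of these 4 lower in post-MCS-01 than in blank wounds.

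Markers of cell content were read beside the members. The 19 epithelial junction genes, among them Dsp and Sfn, summed to 12496 to 15216 CPM in blank, 13888 to 16483 in DSCG, 15591 to 18824 in pre-MCS-01 and 11080 to 21690 in post-MCS-01 wounds, so pre-MCS-01 lay above blank and post-MCS-01 overlapped it. Neutrophil markers summed to 62.4 to 128 CPM in blank, 34.3 to 140 in DSCG, 55.8 to 195 in pre-MCS-01 and 112 to 352 in post-MCS-01 wounds, and macrophage markers to 1109 to 1266, 737 to 1377, 593 to 852 and 971 to 1818, so that macrophage markers were lower in every pre-MCS-01 wound than in every blank wound. Fibroblast markers ranged from 11879 to 68465 CPM over all wounds and sebaceous gland markers from 144 to 578. Mast cell markers, of interest as both agents are mast cell stabilizers, summed to 181 to 256 CPM in blank, 140 to 272 in DSCG, 175 to 309 in pre-MCS-01 and 213 to 345 in post-MCS-01 wounds. The highest sum, in post-MCS-01 replicate 2, rested on Hdc, at 243 CPM. In that library Kit, Cpa3, Mcpt4 and Tpsb2 were at their lowest of all libraries. T cell, endothelial and skeletal muscle markers overlapped blank in all 3 treated groups. None of these lists of markers, the epithelial junction genes included, had a call by edgeR in any comparison. At an unadjusted p under 0.05 up to 5 genes of a list stood out (macrophage markers, lower for pre-MCS-01 against post-MCS-01). DESeq2 called 2 of these 5, and 10.2% of all genes reached that unadjusted level in that comparison in either direction. With the mean level of the epithelial junction genes as a covariate, the fitted log2 differences of post-MCS-01 from blank were 0.87 for Krt6a, 1.80 for Krt6b, 1.29 for Krt16, -0.13 for Krt17 and -2.52 for Krt75, against 0.99, 1.98, 1.39, -0.17 and -2.68 without it. The part of the cell types named here in the keratin values was not tested.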

How the data were processed

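Read length, strand and software settings are not given in the sources used here. Per the labels' protocols, flash-frozen wounds gave total RNA (miRNeasy kit) for TruSeq RNA libraries. The authors deposited whole-number read counts per gene, 1 file per library, with 5 HTSeq summary lines that were left out of library sizes. Per the submitters' processing notes, FastQC, TopHat2, Bowtie2, HTSeq, limma and build mm10 were named, without versions of the tools or their order.

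The deposited counts were fitted with edgeR 4.0.16 (quasi-likelihood, TMM scaling, filterByExpr) in R 4.3.3, in 1 model of all 12 libraries by treatment, with 8 residual degrees of freedom. Of 24062 genes 16267 were tested, and p-values were adjusted over them with a threshold of 0.05. The tools limma 3.58.1 and DESeq2 1.42.0 were alternatives. Log2 CPM used a prior count of 2. Depth was 3.84e+06 to 5.05e+07 gene counts, so counting error was small for the 5 keratins beside the spread between mice. The biological coefficient of variation was 0.347, a single value for the whole data set. For the 5 keratins the SD within a group was 1.65% (Krt16 in pre-MCS-01) to 86.3% (Krt16 in DSCG) of the mean CPM. Exon lengths, loci and sequences came from the GENCODE M21 annotation of GRCm38 (mm10), and 22708 genes had a length. No 2 libraries had identical counts. Replicates are separate mice per the labels, numbered here in accession order.

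The members and gene lists were chosen with earlier results of these data known. Named were every member, the 5 genes most correlated with each, and of each list up to 4 called genes with the smallest p or, with none called, up to 2 with the highest mean CPM. Alternatives were 23 other settings of scaling, filter, tool, covariate and libraries.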

Additional observations from a re-analysis of the deposited data

How the results depend on the processing

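No member was called in any of the 7 tests, and this count of 0 became 1, always Krt75, in 4 of them under some alternatives. For post-MCS-01 against blank it was 1 with DESeq2 (adjusted p = 0.0255), with limma-voom and library quality weights (0.0331) and with a fit of the 2 groups compared (0.0283). For pre-MCS-01 against post-MCS-01 it was 1 with the same 3 settings (0.000906, 0.00525 and 0.0258). For post-MCS-01 against DSCG it was 1 with DESeq2 (9.94e-05), and in the joint test 1 with DESeq2 (0.00852) and with quality weights (0.0265). Leaving out 1 library gave 0 to 1 in these 4 tests, with 1 only without DSCG replicate 1, and 0 to 0 in the other 3. The cause was not tested. Of 690 pairs of a fold change and an alternative, 10 were calls, all of Krt75, and 23 changed sign, none of them of a called value. The log2 difference of Krt75 ranged from -2.95 to -2.14 for post-MCS-01 against blank, from 2.75 to 3.66 for pre-MCS-01 against post-MCS-01 and from -4.27 to -2.22 for post-MCS-01 against DSCG. Over all genes the 134 calls for pre-MCS-01 against post-MCS-01 became 425 with DESeq2, 1 with limma-voom, 3818 with quality weights and 0 to 254 without 1 library. The 172 calls for post-MCS-01 against DSCG became 613, 2, 0 and 0 to 606, and the 0 calls for post-MCS-01 against blank became 400, 0, 827 and 0 to 222. The 0 calls for pre-MCS-01 against blank became 75, 0, 2485 and 0 to 0, those of the joint test 556, 1, 2189 and 0 to 273 (273 without DSCG replicate 1), and those for pre-MCS-01 against DSCG 15 with DESeq2. With an exon length covariate, or without the 3 libraries low in long transcripts, no gene was called in any test. No paired analysis was possible because the replicate numbers follow accession order and no label ties a mouse of one group to a mouse of another. Blank replicate 3, at 3.84e+06 gene counts, limits genes of a few CPM such as Il20.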
